A study of Rattus norvegicus with 16 samples.

Results

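Glycolysis splits glucose into pyruvate in the cytosol and yields ATP without oxygen, and lactate dehydrogenase can then turn the pyruvate into lactate. Cells take up glucose through transporters of the GLUT family, and hexokinase and phosphofructokinase commit it to the pathway. The lower enzymes, among them glyceraldehyde-3-phosphate dehydrogenase (Gapdh), recover the energy. Dividing cells, inflamed tissue and many tumors run the pathway fast, and Gapdh also serves as a common reference gene for expression measurements. The 10 genes described here are the transporter Slc2a1, the hexokinases Hk1 and Hk2, the phosphofructokinase Pfkp, the lower enzymes Aldoa, Tpi1, Gapdh, Pgk1 and Eno1, and the lactate dehydrogenase Ldha, of 15159 named genes on the array. They were chosen by the measured Gapdh signal, which read higher after dextran sodium sulfate in these same arrays, to see whether other glycolysis genes did as well. The Gapdh differences between treated and untreated rats are therefore a description and were not tested.

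Total RNA came from normal distal colon of 16 rats, all (ACIxF344)F1 and 97 days old, with 1 single-colour Agilent array per rat. There were 4 rats in each of 4 groups, wildtype or Pirc/+, untreated or given dextran sodium sulfate (DSS). Pirc is an allele of Apc, the tumor suppressor whose loss starts most colon adenomas, and DSS is a sugar polymer that injures the colon epithelium and inflames the colon. Treated rats received 4% DSS from day 40 to day 47 and again from day 54 to day 61, so that 36 days passed between the last DSS and sampling. Each array carried 58717 spots for 30367 probes besides the controls. Brightness, taken as the 75th percentile of an array, had group medians of 1387 (untreated wildtype), 1222 (DSS-treated wildtype), 1980 (untreated Pirc) and 1580 (DSS-treated Pirc). Among DSS-treated Pirc rats it ran from 875 (rat 16, the dimmest array) to 1829, and among untreated Pirc rats from 1063 (rat 23) to 2194. Rat 16 read highest of its group for every glycolysis gene but Hk1 and Hk2. Levels below are relative to this percentile, and its part in the differences was not tested. The share of spots well above background lay between 71.1% and 80.3% on every array, with 0 saturated spots. Precision is limited by the number of arrays.

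The arrays lay on 2 slides of 8, with 2 rats of each group on each slide. Each group filled 1 array column on both slides, so array column and group cannot be told apart. Of the 16 arrays, 14 resembled another array of their own group most. The exceptions were untreated Pirc rat 23 and DSS-treated wildtype rat 26, whose nearest array was that of untreated wildtype rat 25 (Pearson r over all probes 0.988 for both). Of 12 listed markers of colon epithelium, 10 had a probe, and these 10 were well above background on all 16 arrays, with Krt19 the brightest. Summed over the list, they gave a median of 461 times the 75th percentile of the array in untreated wildtype rats, 546 in DSS-treated wildtype rats, 458 in untreated Pirc rats and 438 in DSS-treated Pirc rats.

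All 10 glycolysis genes were measured, by 13 probes, 3 of them for Gapdh, 2 for Tpi1 and 1 for each other gene. The 13 probes were well above background on all 16 arrays. Levels are given on the log2 scale relative to the 75th percentile of the array, which is 0, from the brightest probe of each gene. Levels of different genes are not compared because probes differ in efficiency. The brightest gene of a marker list is named only as the largest part of its summed signal. Values follow the order of rats 13, 17, 21 and 25 for untreated wildtype, 14, 18, 22 and 26 for DSS-treated wildtype, 11, 15, 19 and 23 for untreated Pirc and 12, 16, 20 and 24 for DSS-treated Pirc. A change is called when limma gives an adjusted p of 0.05 or less over all 30367 probes, whatever its size. In bulk tissue, fewer cells of a type and less RNA per cell cannot be told apart.

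Gapdh converts glyceraldehyde-3-phosphate and makes the pathway's NADH. In wildtype rats it read 5.39, 5.28, 5.27 and 4.89 untreated and 5.89, 5.69, 5.62 and 5.35 after DSS. In Pirc rats it read 5.07, 4.91, 4.69 and 4.92 untreated and 5.54, 5.88, 5.45 and 5.09 after DSS. Among Pirc rats every treated value lay above every untreated one, and among wildtype rats 3 of the 4 treated values did, with rat 26 below untreated rat 13. The group means were 4.90 ± 0.15 (SD, n = 4) in untreated Pirc, 5.21 ± 0.22 in untreated wildtype, 5.49 ± 0.32 in DSS-treated Pirc and 5.64 ± 0.22 in DSS-treated wildtype rats, and the ranges of neighbours in that order overlapped. The log2 difference after DSS was 0.51 over both genotypes (fold 1.42), 0.59 in Pirc rats and 0.43 in wildtype rats. The other Gapdh probes gave 0.45 and 0.51 over both genotypes, and the 3 probes correlated with each other over the 16 arrays at r of 0.980 to 0.997. On the other probe that gave 0.45, treated Pirc rat 24 (4.80) lay below untreated Pirc rat 11 (4.85). On the other probe that gave 0.51, the wildtype groups did not overlap. The difference was 0.59 on slide 1 and 0.43 on slide 2.

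**Figure D1:**
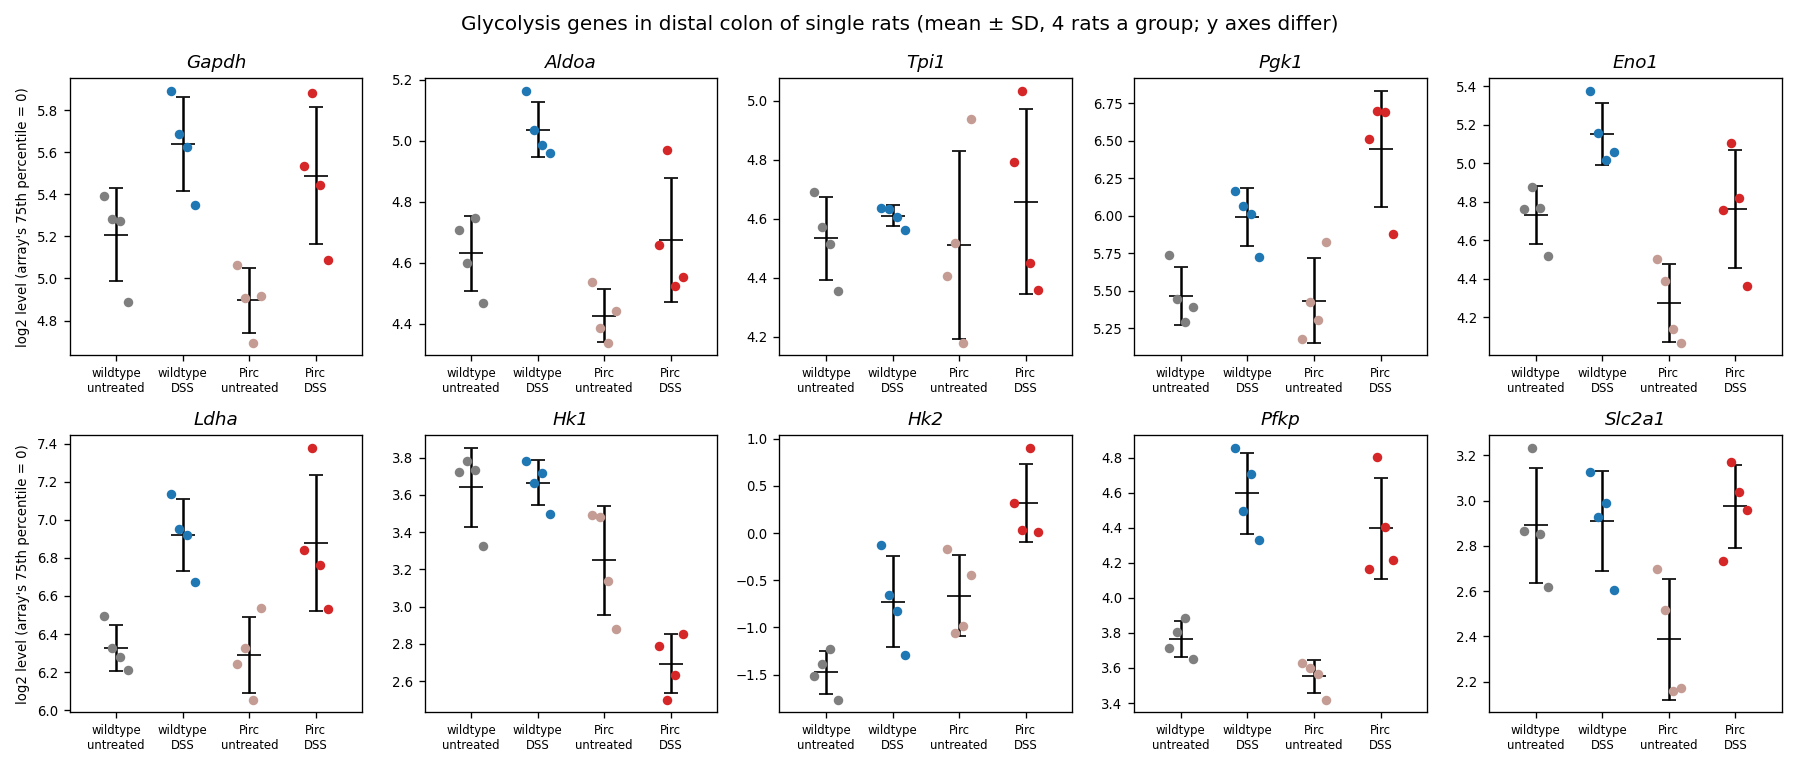
Level of each of the 10 glycolysis genes in single rats (points, log2 relative to the 75th percentile of the array; bars, mean and SD of 4 rats; the y axes differ). After DSS, Pfkp lies above every untreated rat of the same genotype in both genotypes, and Hk1 lies lowest in DSS-treated Pirc rats (2.50 to 2.85).

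Of the other 9 genes, 6 were called higher after DSS over both genotypes (Aldoa, Pgk1, Eno1, Ldha, Hk2 and Pfkp) and 0 lower by limma, beside 10.2% of all probes called higher and 6.99% called lower. At an unadjusted p under 0.05, 7 of the 9 were higher and 1 was lower, beside 8499 of the 30367 probes in either direction. The median log2 change of the 9 genes was 0.45, against 0.06 over all probes. In Pirc rats alone 5 were called higher (Pgk1, Ldha, Hk2, Pfkp and Slc2a1) and 1 lower (Hk1), beside 8.14% and 6.51% of all probes. In wildtype rats alone 1 was called higher (Pfkp) and 0 lower by limma, beside 2.94% and 0.899%, and 6 were higher and 0 lower at an unadjusted p under 0.05, beside 5106 probes in either direction. The median change of the 9 was 0.59 in Pirc rats and 0.42 in wildtype rats, against 0.04 and 0.09 over all probes. Leaving out 1 rat also moved the calls over all probes. For DSS in wildtype rats, 892 higher and 273 lower, they were 339 and 83 without rat 14, 416 and 89 without rat 17, 405 and 95 without rat 18, 471 and 142 without rat 21, and 592 and 113 without rat 25. They were 613 and 164 without rat 13 and 1238 and 563 without rat 26. For DSS in Pirc rats the 1978 probes called lower were 1288 without rat 11, 1154 without rat 15 and 1043 without rat 20. The counts are a description, because the genes were chosen with the DSS contrast known. The count of 6 over both genotypes was 6 in each fit that left out 1 rat, and the count lower became 1 (Hk1) without rat 23. In Pirc rats the count higher was 2 without rat 15, 19 or 20 and 3 without rat 12 or 16, and the count lower was 0 without rat 11, 15, 16 or 20. Over all probes the 2473 called higher in Pirc rats were 1726, 1781 and 1733 without rat 15, 19 or 20. They were 2079 without rat 12 and 2017 without rat 16, where 2039 were called lower. In wildtype rats the count higher was 3 without rat 16 of the DSS-treated Pirc group, which shares the estimate of spread, and 2 without rat 26. Without rat 16 the calls over all probes in wildtype rats were 1002 higher and 329 lower.

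The first steps of the pathway are uptake and phosphorylation of glucose. Slc2a1 encodes GLUT1, the transporter of basal glucose uptake. It read 2.70, 2.52, 2.16 and 2.17 in untreated and 2.73, 3.17, 3.04 and 2.96 in DSS-treated Pirc rats. The treated Pirc rats all lay above the untreated ones, with treated rat 12 just above untreated rat 11. In wildtype rats it read 2.86, 3.23, 2.85 and 2.62 untreated and 3.12, 2.93, 2.99 and 2.60 after DSS, and the groups overlapped. The change was 0.59 in Pirc rats (SE 0.17, adjusted p 0.0336) and 0.02 in wildtype rats (SE 0.17, adjusted p 0.967), and with all spots kept, with scaling to reference genes and with scaling to Gapdh the wildtype value was negative. Over both genotypes the change was 0.30 (adjusted p 0.109). Over the fits that left out 1 rat, the adjusted p in Pirc rats ran from 0.0247 to 0.101, above 0.05 without rat 15, 16, 19, 20 or 23. The call in Pirc rats was also lost with quantile normalization (0.50, adjusted p 0.0503), scaling to reference genes (0.495, adjusted p 0.0942) and only the compared groups (adjusted p 0.0898). The difference between the DSS changes of the genotypes was 0.57 (95% interval 0.05 to 1.09, adjusted p 0.432).

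Hk2 encodes the hexokinase that is inducible in many tissues and abundant in tumors. It read -1.52, -1.39, -1.23 and -1.77 in untreated wildtype rats, all below the other groups apart from an overlap with rat 26. In DSS-treated wildtype rats it read -0.13, -0.66, -0.82 and -1.29, and in untreated Pirc rats -0.17, -1.06, -0.98 and -0.45, which overlapped. In DSS-treated Pirc rats it read 0.32, 0.03, 0.90 and 0.01, above every rat of the other 3 groups. The DSS change over both genotypes was 0.87 (SE 0.19, fold 1.82, adjusted p 0.00567). In Pirc rats it was 0.98 (SE 0.27, adjusted p 0.025), and over the fits without 1 rat this adjusted p ran from 0.0174 to 0.0878, above 0.05 without rat 12, 15, 19 or 20, and it was 0.0676 with only the compared groups in the fit. In wildtype rats the change of 0.75 (SE 0.27) was not called (adjusted p 0.155).

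Hk1 encodes the hexokinase found in most tissues. It read 3.72, 3.78, 3.73 and 3.32 in untreated and 3.78, 3.66, 3.72 and 3.50 in DSS-treated wildtype rats, with rat 25 the lowest of these 8. In Pirc rats it read 3.49, 3.48, 3.14 and 2.88 untreated and 2.79, 2.50, 2.63 and 2.85 after DSS. The treated Pirc rats lay below all other rats, with rat 24 just below untreated rat 23. In Pirc rats Hk1 fell by 0.55 after DSS (SE 0.16, adjusted p 0.029), and over the fits without 1 rat the adjusted p ran from 0.00844 to 0.0962, above 0.05 without rat 11, 15, 16 or 20, and it was 0.112 with only the compared groups. In wildtype rats the change was 0.03 (adjusted p 0.951), and it was negative with scaling to reference genes (-0.00) or to Gapdh (-0.40). Over both genotypes the value of -0.26 (SE 0.11) was not called (adjusted p 0.129), and it was called without rat 23, over a range of adjusted p from 0.0402 to 0.248. The difference between the genotypes' DSS changes was -0.58 (95% interval -1.06 to -0.10, adjusted p 0.376).

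Pfkp encodes the platelet-type phosphofructokinase, a subunit of the enzyme at the main control point of glycolysis. In wildtype rats it read 3.71, 3.80, 3.88 and 3.65 untreated and 4.86, 4.50, 4.71 and 4.33 after DSS. In Pirc rats it read 3.63, 3.60, 3.56 and 3.42 untreated and 4.16, 4.80, 4.41 and 4.22 after DSS. The 8 treated rats all lay above the 8 untreated rats, rat 26 included. The change over both genotypes was 0.84 (SE 0.11, fold 1.79, adjusted p 0.000114). It was 0.84 in Pirc rats (SE 0.15, adjusted p 0.00204) and 0.83 in wildtype rats (SE 0.15, adjusted p 0.00873), and these calls held in each fit without 1 rat. The difference between these changes was 0.01 (95% interval -0.45 to 0.47, adjusted p 0.99).

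Aldolase, triose phosphate isomerase and the enzymes below them make and use the triose phosphates. Aldoa, the aldolase of muscle and most dividing cells, read 4.71, 4.60, 4.75 and 4.47 in untreated and 5.16, 5.03, 4.99 and 4.96 in DSS-treated wildtype rats. The wildtype groups did not overlap. In Pirc rats Aldoa read 4.54, 4.39, 4.34 and 4.44 untreated and 4.66, 4.97, 4.52 and 4.55 after DSS, with rat 20 inside the untreated range. Aldoa rose by 0.33 over both genotypes (SE 0.09, fold 1.25, adjusted p 0.015), and with scaling to Gapdh its change was -0.18. Neither genotype alone was called with all rats (0.25 in Pirc, adjusted p 0.201; 0.41 in wildtype, adjusted p 0.0802). Without rat 16 the wildtype change was called, over a range of adjusted p from 0.0405 to 0.241 in the fits without 1 rat. With all rats it was called with quantile normalization, normexp or no moderation (adjusted p 0.0432, 0.0257 and 0.0418). Tpi1, the isomerase, read 4.69, 4.57, 4.52 and 4.36 in untreated and 4.64, 4.63, 4.61 and 4.56 in DSS-treated wildtype rats, a treated range inside the untreated one. In Pirc rats Tpi1 read 4.41, 4.52, 4.18 and 4.94 untreated and 4.79, 5.03, 4.45 and 4.36 after DSS, again with overlap. Its change over both genotypes was 0.11 (95% interval -0.15 to 0.37, adjusted p 0.636), and -0.40 with scaling to Gapdh. Its other probe gave 0.11 as well (95% interval -0.14 to 0.37, adjusted p 0.619).

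Pgk1 encodes phosphoglycerate kinase, the first enzyme of the pathway to make ATP. It read 5.74, 5.44, 5.29 and 5.39 in untreated and 6.17, 6.07, 6.01 and 5.72 in DSS-treated wildtype rats. It read 5.18, 5.43, 5.31 and 5.83 in untreated and 6.51, 6.70, 6.69 and 5.88 in DSS-treated Pirc rats. Rat 23 was the highest untreated Pirc rat and rat 24 the lowest treated one, still above it, and rat 26 lay just below untreated rat 13. Pgk1 rose by 0.77 over both genotypes (SE 0.14, fold 1.70, adjusted p 0.0014) and by 1.01 in Pirc rats (SE 0.20, adjusted p 0.00319). In wildtype rats 0.53 was not called (adjusted p 0.17), but it was called with quantile normalization (0.60, adjusted p 0.0389) and normexp (0.55, adjusted p 0.0387). The difference between the genotypes was 0.49 (95% interval -0.11 to 1.08, adjusted p 0.555).

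Eno1 encodes alpha-enolase, and Ldha the lactate dehydrogenase chain that favours lactate. Eno1 read 4.76, 4.87, 4.77 and 4.52 in untreated and 5.38, 5.16, 5.02 and 5.06 in DSS-treated wildtype rats, without overlap. In Pirc rats Eno1 read 4.50, 4.39, 4.14 and 4.07 untreated and 4.76, 5.11, 4.82 and 4.36 after DSS, with rat 24 inside the untreated range. Eno1 rose by 0.45 over both genotypes (SE 0.11, fold 1.37, adjusted p 0.0123), and with scaling to Gapdh its change was -0.06. In Pirc rats the Eno1 change of 0.49 was not called (adjusted p 0.057), with an adjusted p of 0.0131 to 0.141 in the fits without 1 rat, under 0.05 without rat 24. With all rats it was called with slide, or slide and array row, as terms, dim probes filtered out, scaling to the median of bright probes, or probes of a gene averaged (adjusted p 0.0206 to 0.0451). Ldha read 6.49, 6.33, 6.28 and 6.21 in untreated and 7.14, 6.95, 6.92 and 6.67 in DSS-treated wildtype rats, without overlap. In Pirc rats Ldha read 6.24, 6.32, 6.05 and 6.54 untreated and 6.84, 7.38, 6.76 and 6.53 after DSS, with rat 24 just below untreated rat 23. Ldha rose by 0.59 over both genotypes (SE 0.12, fold 1.51, adjusted p 0.00357), and the change was 0.59 in each genotype (adjusted p 0.0334 in Pirc, 0.073 in wildtype; the Pirc change was -0.00 with scaling to Gapdh). Over the fits without 1 rat the adjusted p in Pirc rats ran from 0.0132 to 0.101, above 0.05 without rat 11, 12, 15, 16, 19 or 20, and that in wildtype rats from 0.0278 to 0.23, under 0.05 without rat 16 or 26. With all rats the wildtype change was called with quantile normalization, normexp, dim probes filtered out or slide as a term (adjusted p 0.0119 to 0.0481), and the Pirc change was not with only the compared groups (0.134). The difference between the genotypes was -0.00 (95% interval -0.52 to 0.52).

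**Figure D2:**
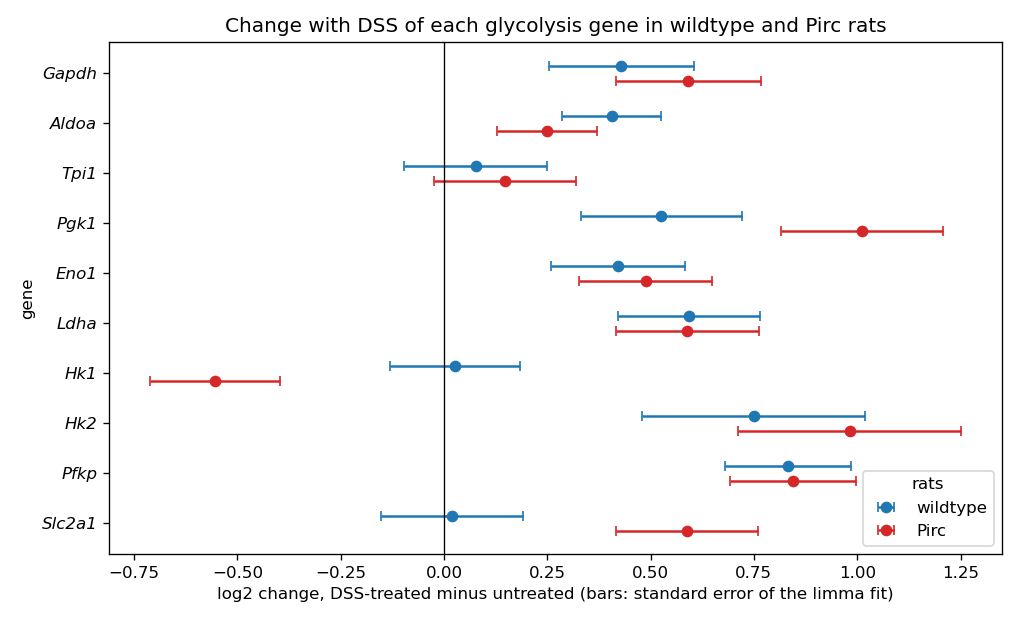
Log2 change after DSS (x axis) of each glycolysis gene (y axis) in wildtype and Pirc rats, with the standard error of the limma fit as bars. The Pirc and wildtype changes are 0.84 and 0.83 for Pfkp and 0.59 and 0.59 for Ldha (Gapdh was not tested), while with scaling to Gapdh those of Aldoa, Tpi1, Eno1, Hk1 and Slc2a1 are negative in both genotypes and that of Ldha in Pirc rats.

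The slides gave the same direction for the 6 called genes. On slides 1 and 2 the change over both genotypes was 0.40 and 0.26 for Aldoa, 0.92 and 0.62 for Pgk1, 0.47 and 0.44 for Eno1, and 0.73 and 0.45 for Ldha. It was 0.93 and 0.81 for Hk2, and 0.89 and 0.78 for Pfkp. For the genes not called it was 0.23 and -0.00 for Tpi1, -0.44 and -0.09 for Hk1, and 0.16 and 0.45 for Slc2a1. With slide as a term of the fit these changes were the same, since each group has 2 rats on each slide, and some calls differed. Gained were Eno1 for DSS in Pirc rats, Ldha for DSS in wildtype rats, and Aldoa and Eno1 for Pirc after DSS.

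A level of Gapdh is often used as the divisor for other genes, so the changes were also computed relative to its brightest probe. This shifted the median change of all probes after DSS over both genotypes from 0.06 to -0.45, and turned 3111 probes called higher and 2123 lower into 1366 and 15126. Since the genes were chosen by the Gapdh difference after DSS, which this scaling subtracts from each DSS change, its DSS values and counts are a description, here and below, and no call of a gene is taken from them. Relative to Gapdh, the changes over both genotypes were positive for Pfkp (0.33), Pgk1 (0.26), Ldha (0.08) and Hk2 (0.36). They were negative for Tpi1 (-0.40), Hk1 (-0.77), Aldoa (-0.18), Eno1 (-0.06) and Slc2a1 (-0.21). A ratio within an array shows only that the genes changed unequally. Quantile normalization moved the median of all probes to -0.06 and the calls to 2671 higher and 3730 lower, and the 6 genes were called higher under it. For DSS in Pirc rats the calls went from 2473 higher and 1978 lower to 2210 and 3326 after quantile normalization, and in wildtype rats from 892 and 273 to 802 and 575. With normexp these were 2285 and 3524 in Pirc and 610 and 648 in wildtype rats, and with scaling to Gapdh 1161 and 12084 in Pirc and 325 and 653 in wildtype rats. With scaling to reference genes they were 2048 and 2469 in Pirc and 793 and 275 in wildtype rats. With only the compared groups in the fit they were 1704 and 819 in Pirc and 394 and 130 in wildtype rats. Of 22 listed reference genes outside glycolysis 20 had a probe, and over both genotypes 2 were called higher after DSS and 1 lower, with a median of 0.01. Those higher were Actb (0.50, adjusted p 0.00452) and Ywhaz (0.31, adjusted p 0.0215), both negative when scaled to Gapdh (-0.01 and -0.20). Ywhaz was not called with scaling to reference genes, but the divisor there was the mean of these 20 genes, Ywhaz included. That scaling is therefore no check on genes of this list.

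The Pirc comparison did not enter the choice of genes. It asks how the mucosa that carries an Apc mutation differs from wildtype outside tumors. Over both treatments 1 of the 10 genes was called higher (Hk2) and 3 lower (Aldoa, Eno1 and Hk1), beside 9.26% of all probes called higher and 8.27% called lower. The median change of the 10 was -0.21, against -0.06 over all probes. Hk2 was higher in Pirc rats by 0.93 (SE 0.19, fold 1.90, adjusted p 0.00569), by 0.70 on slide 1 and 1.15 on slide 2. Untreated Pirc rats all lay above untreated wildtype rats, and treated above treated. Hk1 fell by 0.68 (SE 0.11, fold 0.623, adjusted p 0.00199), with -0.67 and -0.69 on the slides. Eno1 fell by 0.42 (SE 0.11, adjusted p 0.02), with -0.36 and -0.49 on the slides. Aldoa fell by 0.28 (SE 0.09, adjusted p 0.034), with -0.24 and -0.33 on the slides. The Aldoa call was lost without rat 12, 13, 14, 15, 17, 18, 19, 20, 21, 22 or 24, with an adjusted p of 0.00857 to 0.0741 over the fits without 1 rat. Gapdh differed by -0.23 (SE 0.12, adjusted p 0.224) and was called lower with quantile normalization (-0.33), scaling to reference genes (-0.36) and normexp background correction (-0.30). Scaling to reference genes moved the median of all probes from -0.06 to -0.18, and the calls from 2813 higher and 2511 lower to 1759 and 5130. Scaling to Gapdh moved that median to 0.17 and the calls to 4348 and 427, and under it Aldoa, Eno1 and Hk1 were not called.

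Within DSS-treated rats, Pirc against wildtype, 1 gene was called higher (Hk2, 1.04, SE 0.27, adjusted p 0.0166) and 1 lower (Hk1, -0.97, SE 0.16, adjusted p 0.00177), beside 9.47% and 8.76% of all probes. Over all probes the calls went from 2877 higher and 2660 lower to 1907 and 1698 without rat 12 and 1634 and 1497 without rat 20. Without rat 16 they were 2907 and 3898, and without rat 24 they were 3156 and 2602. The call of Hk2 was lost without rat 20, with an adjusted p of 0.0118 to 0.0603 over the fits without 1 rat, and that of Hk1 held in each. Aldoa (-0.36, adjusted p 0.0512) and Eno1 (-0.39, adjusted p 0.11) were not called but were called lower without rat 16, and Pgk1 (0.45, adjusted p 0.126) was called higher without rat 24. The counts then were 3 lower without rat 16, 2 higher without rat 24 and 0 higher by limma without rat 20, where 2 genes were higher at an unadjusted p under 0.05 with all rats, beside 9518 probes in either direction. With all rats, Aldoa was called lower under 9 alternatives and Eno1 under 4, and Hk2 was not called with only the compared groups (adjusted p 0.0652). The adjusted p over the fits without 1 rat ran from 0.0121 to 0.145 for Aldoa, 0.0352 to 0.287 for Eno1 and 0.0188 to 0.305 for Pgk1. With scaling to reference genes the calls over all probes were 1903 and 4694, with scaling to Gapdh 1627 and 657, with only the compared groups 1119 and 1008, with normexp 3175 and 3606, and with quantile normalization 2899 and 3581. Within untreated rats limma called 0 of the 10 genes and 0 of all probes, while 1 gene was higher and 3 were lower at an unadjusted p under 0.05, among 3103 probes. Without rat 13, 1 probe was called higher, and without rat 16, 4 were. With all rats, 4 were called higher and 13 lower with normexp, 5 higher with scaling to Gapdh, 3 lower with no moderation, 3 higher with only the compared groups and 1 higher with dim probes filtered out. Hk2 (0.81), Eno1 (-0.46), Hk1 (-0.39) and Slc2a1 (-0.50) had 95% intervals that left out 0. For the difference between the DSS changes of the genotypes limma called 0 of the 9 genes other than Gapdh, with 2 at an unadjusted p under 0.05 (Hk1 and Slc2a1). Over all probes 0.0428% were called for this difference (13 probes higher, with 3234 at an unadjusted p under 0.05). Leaving out 1 rat moved this to 8 higher without rat 11 or 25, 61 higher and 2 lower without rat 12, 21 and 6 without rat 16, and 26 and 1 without rat 22. It was 12 and 6 without rat 23, 17 and 8 without rat 24 and 24 and 11 without rat 26, and with normexp and all rats 32 and 23. For Gapdh, as a description, the difference was 0.16, and -0.05 with quantile normalization.

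Genes next to the 10 in metabolism were listed as well. After DSS over both genotypes, 10.2% of all probes were called higher and 6.99% lower. Of 21 measured other glycolytic enzymes (22 listed), 4 were called higher after DSS over both genotypes and 3 lower, with a median of 0.07. Those well above background on all arrays were the regulator Pfkfb2 (0.58, SE 0.13, adjusted p 0.00642), the pyruvate kinase Pkm (0.57, SE 0.12, adjusted p 0.00336) and the mutase Pgam1 (0.38, SE 0.09, adjusted p 0.00695; -0.13 with scaling to Gapdh). The Pgam1 change was 0.58 in Pirc and 0.17 in wildtype rats (adjusted p of the difference 0.417). Among the falls were the muscle enolase Eno3 (-1.17, SE 0.25, adjusted p 0.00455) and the liver pyruvate kinase Pklr (-0.76, SE 0.18, adjusted p 0.00783). With probes of a gene averaged, Pfkfb2 (0.06, adjusted p 0.813) and Pkm (0.33, adjusted p 0.105) were not called, and Pfkfb2 was not called with normexp either (0.15, adjusted p 0.0913). Of 18 genes that handle pyruvate and lactate, 2 were called higher and 3 lower, with a median of -0.00. The lactate exporter Slc16a3 rose by 1.09 (SE 0.22, adjusted p 0.00297) and the heart-type dehydrogenase Ldhb by 0.70 (adjusted p 0.0253). By genotype, Ldhb changed by 1.11 in Pirc and 0.29 in wildtype rats (adjusted p of the difference 0.49). Ldhb was not called without rat 14, 16 or 21 (adjusted p 0.0117 to 0.0575 over the fits without 1 rat), nor with quantile normalization (0.55, adjusted p 0.0514) or normexp (0.355, adjusted p 0.054). Pdp1 fell by 0.60, Pdk2 by 0.53 and the transporter Slc16a1 by 0.38 (adjusted p 0.0171, 0.0372 and 0.0192). The Pdp1 change was -1.17 in Pirc and -0.03 in wildtype rats, and the Pdk2 change -0.82 and -0.24, and neither difference was called (adjusted p 0.247 and 0.548). The Pdk2 call was lost without rat 11, 12, 13, 14, 15, 17, 18, 19, 20, 21 or 25 (adjusted p 0.0135 to 0.0818).

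Side and reverse routes gave further calls after DSS over both genotypes, beside 10.2% of all probes called higher and 6.99% called lower. At an unadjusted p under 0.05 by limma there were 8499 of the 30367 probes in either direction. In the pentose phosphate pathway, which makes NADPH and ribose, 2 of 8 measured genes (9 listed) were called higher and 0 lower by limma, where 3 were higher and 1 lower at an unadjusted p under 0.05. They were Taldo1 (0.57, SE 0.09, adjusted p 0.00042) and Tkt (0.37, SE 0.10, adjusted p 0.0196; -0.14 with scaling to Gapdh). The Tkt change was 0.64 in Pirc and 0.11 in wildtype rats (adjusted p of the difference 0.381). In gluconeogenesis, the route back to glucose, 2 of 7 genes were called lower and 0 higher by limma, with the same counts at an unadjusted p under 0.05. Fbp1 fell by 1.55 (SE 0.17, adjusted p 3.96e-05) and Pck1 by 1.35 (SE 0.35, adjusted p 0.0146; -2.13 in Pirc and -0.56 in wildtype rats, adjusted p of the difference 0.4475). Of 10 other glucose transporters 1 was called lower (Slc2a10, -0.55, adjusted p 0.019) and 0 higher, where limma gave 1 each way at an unadjusted p under 0.05. The Slc2a10 change was -1.01 in Pirc and -0.09 in wildtype rats, and the difference between them was not called (adjusted p 0.312). Of 11 measured regulators of the hypoxia and Myc responses (12 listed), which act on many glycolysis genes, limma called 0, with 1 higher at an unadjusted p under 0.05. Hif1a changed by -0.24 (SE 0.15, adjusted p 0.351) and Myc by 0.03 (SE 0.21, adjusted p 0.942), neither of them called, and both were singled out after their values were seen. Of 14 measured hypoxia targets outside glycolysis (15 listed), 4 were called higher and 1 lower, with a median of 0.02. Plod2 rose by 1.69 (adjusted p 0.00459), Ndrg1 by 1.07 (adjusted p 0.000921) and Hmox1 by 1.04 (adjusted p 0.0222), and Kdm3a fell by 0.47 (adjusted p 0.042; not called with array row as a term or no moderation). In Pirc rats the Kdm3a change was -0.77 and in wildtype rats -0.17 (adjusted p of the difference 0.5). Hmox1 was not called without rat 14 (adjusted p 0.00868 to 0.0504), nor Kdm3a without rat 11, 12, 15, 17, 18, 19, 20, 21, 22, 25 or 26 (adjusted p 0.0195 to 0.0913).

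In the Pirc comparison over both treatments, 1 other glycolytic enzyme was called higher (Adpgk, 0.44) and 4 lower, among them Eno3 (-0.79), Pklr (-0.77) and Pkm (-0.43). Of all probes, 9.26% were called higher in this comparison and 8.27% lower. Of the pyruvate and lactate genes 2 were higher (Pdk3, 0.81, and Slc16a7, 0.74) and 3 lower (Slc16a1, -0.81, Pdk2, -0.79, and Pdp1, -0.51). Pck1 (-1.50) and Pc (-0.53) of gluconeogenesis and the transporters Slc2a4 (-0.64) and Slc5a1 (-0.57) were lower. Among the regulators Myc was higher by 1.07 (SE 0.21, adjusted p 0.00422), and Epas1 (-1.003), Vhl (-0.59) and Max (-0.52) were lower, as were the hypoxia targets Bnip3 (-1.16) and Bnip3l (-0.43). Of 20 reference genes 5 were called higher, among them Rpl13a (0.44), Hprt1 (0.43) and Rps18 (0.39), and 2 lower, B2m (-0.51) and Ubb (-0.38). Within untreated and DSS-treated rats, Pdp1 differed by 0.06 and -1.08, Pc by -0.11 and -0.95, Pck1 by -0.72 and -2.28, Pdk3 by 0.34 and 1.28, Eno3 by -0.34 and -1.23, and Slc5a1 by -0.24 and -0.91. The difference between the treatments was not called for these 6 genes (adjusted p 0.247 to 0.548). Several of these calls were lost on leaving out any 1 of the rats named next. For Eno3 these were rats 11, 13, 14, 15, 17, 18, 19, 20, 21, 22, 23, 25 and 26, and for Pdp1 rats 12, 13, 14, 15, 16, 17, 18, 19, 20, 21, 22 and 23. For Slc2a4 they were rats 12, 14, 15, 17, 19, 20, 24 and 25, and for Slc5a1 rats 12, 13, 14, 15, 17, 18, 19, 21, 23 and 24. For Rpl13a they were rats 12, 13, 14, 15, 16, 17, 20, 21 and 22, and for Rps18 rats 12, 13, 14, 15, 16, 17, 18, 20, 21, 22, 23, 24 and 26. In the fits without 1 rat the adjusted p reached 0.0861 for Eno3, 0.0878 for Pdp1, 0.0751 for Slc2a4, 0.0743 for Slc5a1, 0.0704 for Rpl13a and 0.0947 for Rps18. With all rats, Adpgk and Rps18 were not called with scaling to reference genes, Rps18 not with slide as a term, and Eno3 not with slide and array row together or no moderation. Rps18 is itself 1 of the 20 reference genes whose mean is the divisor of that scaling.

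Markers of several cell types also moved with DSS. Over both genotypes 10.2% of all probes were called higher and 6.99% lower. All 7 fibroblast markers were called higher over both genotypes (median 2.12), among them Dcn (3.06), Col1a1 (2.36) and Pdgfra (2.12). Their summed signal, with Col1a2 brightest, read 1.39, 1.39, 1.44 and 1.89 times the 75th percentile in untreated and 14.5, 8.04, 2.59 and 3.06 in DSS-treated wildtype rats. In Pirc rats the fibroblast sum read 1.55, 1.60, 2.65 and 2.69 untreated and 5.76, 14.8, 5.49 and 9.31 after DSS, and the treated rats lay above the untreated ones in both genotypes. Of 7 measured markers of macrophages and neutrophils (8 listed), 6 were called higher (median 2.20), among them S100a8 (3.57), S100a9 (3.004) and Cd68 (1.61). Their sum, with S100a9 brightest, had a median of 0.775 in untreated and 3.95 in DSS-treated wildtype rats, and of 1.27 in untreated and 25.1 in DSS-treated Pirc rats. Of 6 measured markers of squamous epithelium (8 listed), which lines the anus and not the colon, 5 were called higher (median 4.05), among them Krt4 (4.70), Krt14 (4.43) and Krt5 (3.66). Their sum, with Tp63 brightest, had a median of 4.23 in untreated and 6.42 in DSS-treated wildtype rats, and of 3.67 in untreated and 37.9 in DSS-treated Pirc rats. Rat 26 was the lowest treated wildtype rat in the macrophage and neutrophil sum (1.19) and the squamous sum (4.18), and also in the colon epithelium, striated muscle and enteric sums. It was the highest in the lymphocyte (1.02), smooth muscle (14.6), red blood cell (277) and proliferation (20.8) sums, and above rat 22 in the fibroblast and endothelial sums. Of the glycolysis genes, it was the lowest of its group in all but Eno1. The part of these cell types in the changes of the glycolysis genes was not tested.

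**Figure D3:**
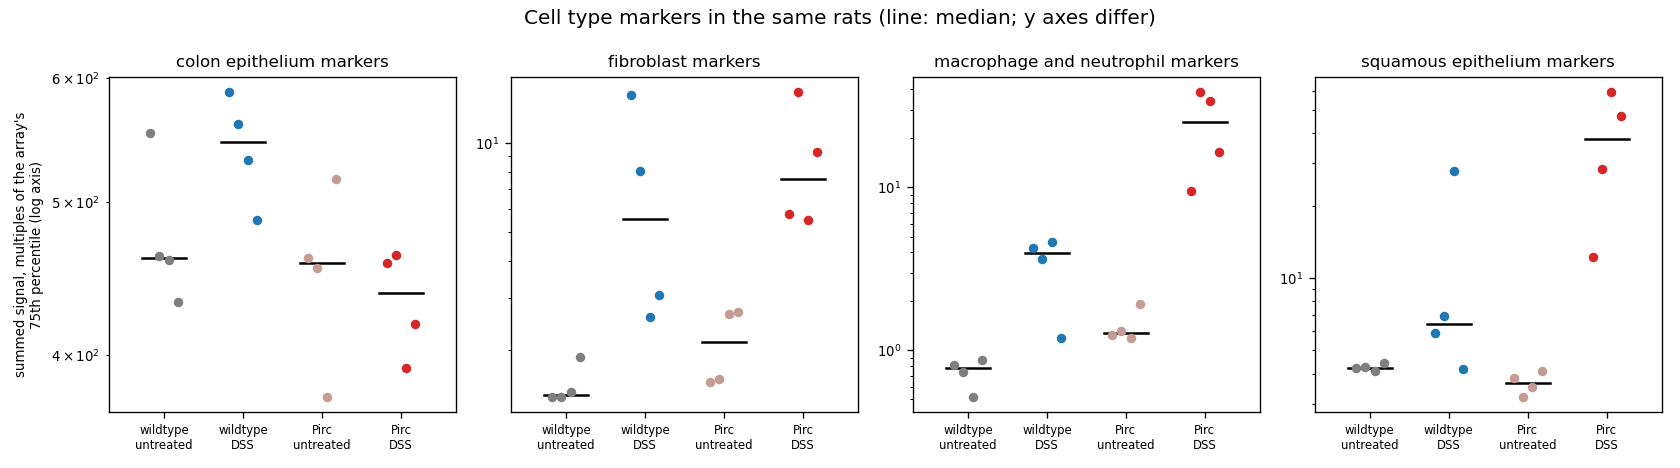
Summed signal of the measured markers of 4 cell types in each rat (points; y axis, multiples of the 75th percentile of the array, log scale; line, median of 4 rats). The fibroblast sum is higher in every DSS-treated rat than in the untreated rats of the same genotype, while the colon epithelium sum has medians of 461 and 546 in wildtype and 458 and 438 in Pirc rats without and with DSS.

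The remaining marker counts stand beside 10.2% of all probes called higher and 6.99% lower after DSS, and 9.26% and 8.27% for Pirc. At an unadjusted p under 0.05 by limma after DSS there were 8499 of the 30367 probes. Among the other marker lists, 4 of 6 measured lymphocyte markers (8 listed) were called higher after DSS (median 1.77, Ptprc 1.90), with Cd3d brightest. Of these 6 only Ptprc, which other white blood cells also express, and Cd3d were well above background on all arrays. The lymphocyte sum had medians of 0.516 and 0.743 in wildtype and 0.495 and 0.668 in Pirc rats without and with DSS. Of 4 measured endothelial markers (5 listed) 2 were higher, Kdr (1.32) and Pecam1 (1.23), and Tek was above background on 0 arrays. Of 8 smooth muscle markers 1 was higher and 1 lower (Des, -1.49), with Lmod1 above background on 0 arrays. Of 7 measured striated muscle markers (8 listed) 3 were higher, among them Acta1 (0.57) and Tnni2 (0.38; -0.13 with scaling to Gapdh), and Ckm was lower (-0.68). Of 6 enteric neuron and glia markers 2 were higher (Tubb3, 0.57; with normexp 0.10, not called), and of 3 measured red blood cell markers (4 listed) limma called 0, with 3 higher at an unadjusted p under 0.05. Of 5 measured proliferation markers (7 listed) 1 was higher after DSS (Rrm2, 1.11; 1.67 in Pirc and 0.54 in wildtype rats, adjusted p of the difference 0.436), and 3 were higher in Pirc rats (Rrm2, 0.77, Mcm2, 0.74, and Pcna, 0.54). Of 10 colon epithelium markers 1 was lower after DSS over both genotypes (Slc26a3, -0.74; -1.72 in Pirc and 0.24 in wildtype rats, with no call between the 2, adjusted p 0.149), and 4 were lower in Pirc rats, among them Slc26a3 (-1.27), Vil1 (-0.49) and Cdh1 (-0.43). The proliferation sum had medians of 14.7 and 15.7 in wildtype and 16.04 and 39.5 in Pirc rats without and with DSS, with Rrm2 brightest. Within untreated and DSS-treated rats the Pirc difference was 0.21 and 1.34 for Rrm2 and -0.29 and -2.25 for Slc26a3. The part of these markers in the glycolysis values was not tested. In the Pirc comparison S100a9 (2.31), S100a8 (1.81) and Ckm (0.79) were also called higher. Within DSS-treated rats S100a9 differed by 3.25 and S100a8 by 2.82, and within untreated rats no probe was called. The DSS calls were lost for Slc26a3 without rat 11, 12, 13, 14, 15, 18, 20, 21, 22 or 26 (adjusted p up to 0.0807), for Tnni2 without rat 14 or 18 (up to 0.0542) and for Ckm without rat 11, 13, 19, 20, 21 or 26 (up to 0.0601). The Pirc calls were lost for Rrm2 without rat 12, 14, 15, 17, 18, 19, 20, 21, 22 or 23 (up to 0.0907), and for Pcna without rat 11, 12, 13, 14, 15, 18, 19, 20, 21 or 22 (up to 0.0846). With all rats, the Pirc calls of Rrm2 and Pcna were also lost with scaling to reference genes or with slide and array row together, and that of Rrm2 with either term or no moderation. Those of Vil1 and Cdh1 were lost with scaling to Gapdh (adjusted p 0.196 and 0.396). The DSS call of Slc26a3 was lost with no moderation, and that of Tnni2 with scaling to reference genes.

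The genes most like Gapdh from rat to rat were sought among 10361 named genes well above background on all 16 arrays, after removing the mean of each group. As a description over 16 arrays, the 10 with the highest Pearson r were Rtkn2 (0.938), Mup4l4 (0.937), Itgbl1 (0.926), Eral1 (0.925), Acta1 (0.924), Kcns2 (0.922), Prss34 (0.921), Or13c7d (0.920), Pdzk1 (0.918) and Adrb1 (0.916). None of these 10 is a glycolysis gene. Of the 9 others, Aldoa ranked 37 (0.861), Ldha 39 (0.860) and Eno1 42 (0.857). Pfkp ranked 589 (0.709), Tpi1 776 (0.672), Pgk1 1005 (0.628), Slc2a1 1065 (0.617), Hk2 1786 (0.494) and Hk1 3784 (0.225). The median r over all these genes was 0.068.

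Promoters are shown for the reference gene, the gene with the E-box and the gene called in both genotypes, and a link of their motifs to the changes was not tested. RefSeq promoter windows of 300 bases (GRCr8) were found for 9 of the 10 genes, in 13 windows of 33469, with no window for Pgk1. The E-box CACGTG was in 6.42% of all windows and in 1 of the 13 (Ldha). The letters ACGTG, which CACGTG contains, were in 19.3% of all windows and in 6 of the 13, and GCGTG was in 29.7% of all and in 6 of the 13. The Sp1-type motif GGGCGG was in 33.1% of all windows and in 7 of the 13. Each motif was sought on both strands, and a match is a description of the letters, not of binding. Capitals mark ACGTG and GCGTG on either strand, and with them the CACGTG of Ldha. The windows are chr4:159652418-159652717 on the minus strand for Gapdh, chr1:106507842-106508141 on the plus strand for Ldha and chr17:68639563-68639862 on the plus strand for Pfkp, written 5′ to 3′.
Gapdh: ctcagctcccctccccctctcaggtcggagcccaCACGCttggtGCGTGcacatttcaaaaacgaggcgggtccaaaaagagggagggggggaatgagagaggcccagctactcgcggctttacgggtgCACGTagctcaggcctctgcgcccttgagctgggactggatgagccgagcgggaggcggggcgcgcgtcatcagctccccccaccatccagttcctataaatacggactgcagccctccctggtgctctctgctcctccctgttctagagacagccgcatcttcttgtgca
Ldha: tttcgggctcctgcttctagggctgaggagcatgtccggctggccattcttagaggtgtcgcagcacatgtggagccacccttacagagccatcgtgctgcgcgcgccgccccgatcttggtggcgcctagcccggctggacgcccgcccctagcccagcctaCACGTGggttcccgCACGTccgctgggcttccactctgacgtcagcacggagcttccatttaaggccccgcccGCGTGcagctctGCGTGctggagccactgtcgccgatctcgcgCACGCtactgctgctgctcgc
Pfkp: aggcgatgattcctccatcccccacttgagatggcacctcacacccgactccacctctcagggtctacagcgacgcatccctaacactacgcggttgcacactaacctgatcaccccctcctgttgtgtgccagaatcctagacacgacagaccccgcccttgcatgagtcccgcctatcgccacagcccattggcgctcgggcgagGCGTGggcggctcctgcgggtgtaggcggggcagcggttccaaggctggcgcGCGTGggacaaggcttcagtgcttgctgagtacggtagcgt
The Gapdh window held 1 ACGTG, 2 GCGTG and 0 GGGCGG, the Ldha window 3 of each, and the Pfkp window 0 ACGTG, 2 GCGTG and 2 GGGCGG. The Hk2 window held 0 of all 4 motifs.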

How the data were processed

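The authors deposited the output of Agilent Feature Extraction 10.7.3.1 for each array, in which each spot has a linear intensity with the background subtracted and no normalization across arrays. Here control spots and spots with an outlier flag were left out, the log2 signal was taken relative to the 75th percentile of the array, and spots of a probe were averaged. Probes were named by their RefSeq transcript, and 18006 probes matched 15159 symbols. Tests used limma (version 3.58.1, R 4.3.3), with 1 mean per group over all 16 arrays and Benjamini-Hochberg adjustment over 30367 probes. Tables were made in Python 3.11.15. There were 7 comparisons: DSS over both genotypes or within 1, Pirc over both treatments or within 1, and the genotype difference of the DSS changes. The fit was tested on simulated data. The glycolysis genes and all lists were chosen with earlier results of these data known. All 10 glycolysis genes are named. From each other list, apart from a few genes that are not reported here, up to 3 rises and 3 falls with the largest change are named, among called genes well above background on all arrays, as are the 10 genes most correlated with Gapdh. The alternatives were 4 other scalings, normexp background correction with an offset of 50, a filter on dim probes, outlier spots kept, slide and array row as terms, each slide alone, only the compared groups, no moderation, probes of a gene averaged, a minimum change of a factor of 2, and each rat left out.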

Additional observations from a re-analysis of the deposited data

Results flagged for a closer look

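In 84 groups of 4 rats (10 glycolysis genes and 11 marker sums in each group), 10 held a rat whose gap to the nearest other, as a share of the range of the group, was above Dixon's critical value for 4 values. For independent groups of normally distributed values chance gives this in about 1 in 20. The marker sums are on a linear scale and the groups share the same rats, so that rate is only a guide. Hk1 in untreated wildtype rat 25 read 3.32, with the others at 3.72 to 3.78. The smooth muscle sum was 9.69 in untreated wildtype rat 25 (others 4.19 to 4.27), 14.6 in DSS-treated wildtype rat 26 (others 3.51 to 3.89) and 6.17 in DSS-treated Pirc rat 16 (others 2.77 to 3.33). The striated muscle sum was 1.02 in untreated Pirc rat 11 (others 0.763 to 0.791) and 1.18 in DSS-treated Pirc rat 16 (others 0.882 to 0.925). The fibroblast sum was 1.89 in untreated wildtype rat 25 (others 1.39 to 1.44). The macrophage and neutrophil sum was 1.93 in untreated Pirc rat 23 (others 1.18 to 1.31). The squamous epithelium sum was 27.8 in DSS-treated wildtype rat 22 (others 4.18 to 6.96). The red blood cell sum was 158 in untreated wildtype rat 25 (others 28.6 to 39.5). Untreated wildtype rat 25 stood out in 4 of these 10 groups.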

How the results depend on the processing

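Of 144 results, 127 are changes of single genes, and 95 of these were called. They were recomputed under up to 16 alternatives and in 16 fits that left out 1 rat. Each slide alone was run for changes of the 10 glycolysis genes, not of other genes, and only the compared groups for results on these 10 within 1 genotype or 1 treatment. The direction of the 6 genes called higher after DSS over both genotypes was kept under each of these run for them except scaling to Gapdh. With a change of a factor of 2 also required, probes called after DSS were 1519 higher and 300 lower over both genotypes. In Pirc rats they were 1672 and 593 and in wildtype rats 719 and 122. For Pirc they were 369 and 237 over both treatments and 940 and 720 after DSS, all of 30367 probes. The glycolysis genes called higher after DSS were then 0 over both genotypes, 1 in Pirc rats and 0 in wildtype rats, and 0 were lower in Pirc rats. In the Pirc comparison they were then 0 higher and 0 lower over both treatments and 0 lower after DSS, since several changes were smaller than that factor. With scaling to Gapdh no counts of these genes are given after DSS, because it subtracts the difference the genes were chosen by. In the Pirc comparison the counts with this scaling were 2 higher and 0 lower, beside 4348 and 427 of all probes. With only the compared groups in the fit they were 2 higher and 0 lower for DSS in Pirc rats and 0 higher for Pirc after DSS, in fits with fewer arrays. For DSS in wildtype rats the count higher was 4 with quantile normalization or normexp, and 2 with slide as a term, no moderation or dim probes filtered out. Over all probes the 892 called higher became 802 (quantile normalization), 610 (normexp), 1024 (slide), 696 (no moderation) and 710 of 19397 (filter). For Pirc after DSS the count lower was 3 with quantile normalization, normexp, scaling to reference genes or slide as a term. It was 2 with the filter, no moderation, scaling to the median of bright probes, slide and array row together, or probes averaged. The 2660 probes called lower became 3581 (quantile normalization), 3606 (normexp), 4694 (reference genes) and 2926 (slide). They were 3174 of 19397 (filter), 2859 (no moderation), 2788 (median of bright probes), 2880 (slide and array row) and 1578 of 15159 genes (probes averaged). The cause was not tested.

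Scaling to Gapdh turned these log2 changes. Over both genotypes after DSS they became -0.18 for Aldoa, -0.40 for Tpi1, -0.056 for Eno1, -0.21 for Slc2a1, -0.13 for Pgam1, -0.14 for Tkt, -0.0082 for Actb, -0.20 for Ywhaz and -0.13 for Tnni2. In Pirc rats they became -0.34 for Aldoa, -0.44 for Tpi1, -0.10 for Eno1, -0.0023 for Ldha and -0.0041 for Slc2a1. In wildtype rats they became -0.024 for Aldoa, -0.35 for Tpi1, -0.0083 for Eno1, -0.40 for Hk1 and -0.41 for Slc2a1. In the Pirc comparison they became 0.19 for Ldha, 0.026 for Pfkp and 0.010 for Slc2a1. Quantile normalization turned Tpi1 to -0.012 for DSS in Pirc rats and -0.054 for Pirc, and the Gapdh difference between DSS changes to -0.051. Scaling to reference genes turned Hk1 to -0.0038 and Slc2a1 to -0.0099 for DSS in wildtype rats, and Tpi1 to -0.11 for Pirc. Tpi1 for Pirc was also -0.0066 with normexp and -0.00064 with the median of bright probes, and Slc2a1 for DSS in wildtype rats -0.012 with outlier spots kept.

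Over the fits that left out 1 rat, the count after DSS ran from 0 to 1 lower over both genotypes, 2 to 6 higher and 0 to 1 lower in Pirc rats, and 1 to 3 higher in wildtype rats. For Pirc after DSS it ran from 0 to 2 higher and 1 to 3 lower. In these fits the change ran from -0.079 to 0.082 for Hk1 and -0.072 to 0.13 for Slc2a1 after DSS in wildtype rats, and from -0.059 to 0.068 for Tpi1 and -0.12 to 0.018 for Ldha in the Pirc comparison. The Gapdh difference after DSS over both genotypes ran from 0.44 to 0.58.

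Gapdh has no value under scaling to itself, and each slide alone gives values with no test, so no counts. Rats were not paired, because each array came from a different rat, and slide and array row were terms in alternative fits. All 13 probes were well above background on all arrays, and 4 rats per group limit the precision. Array column and group cannot be told apart.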
